A study of Danio rerio with 9 samples.

Results

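The *znfl1* genes of the zebrafish are a family of near-identical zinc finger paralogues, and their RNA was followed here in embryos with and without MondoA. Members were all rows of the exonic count table whose Ensembl symbol starts with *znfl1* and that had at least 10 counts in at least 3 libraries. All 8 *znfl1* symbols in the table met this rule, out of 32055 gene rows: *znfl1* (ENSDARG00000037914), *znfl1b* (ENSDARG00000075996), *znfl1c* (ENSDARG00000074359), *znfl1g* (ENSDARG00000079524), *znfl1h* (ENSDARG00000077877), *znfl1i* (ENSDARG00000079126), *znfl1k* (ENSDARG00000079036) and *znfl1l* (ENSDARG00000094197). The closest to the limit was *znfl1b*, which reached 10 counts in exactly 3 libraries, all of them wild-type, and no *znfl1* symbol of the table lay outside the rule. The family was taken up because the low level of *znfl1h* in affected mutants was already known from these libraries, so the values of *znfl1h* are given as a description without a test.

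In zebrafish, Znfl1 proteins are known from the gastrula, where the genes are transcribed in the posterior neuroectoderm, the tissue that forms hindbrain and spinal cord. Knockdown of the whole family is known to lower *hoxb1b*, a marker of that tissue, and *znfl1* copies are known as targets of retinoic acid signalling. The transcription factors Sall4 and Pou5f3 are placed between Znfl1 and *hoxb1b*.

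Total RNA depleted of ribosomal RNA was sequenced from pools of whole *Danio rerio* embryos in 3 groups of 3 libraries. Wild-type embryos with unaffected epiboly were the controls. MZ*mondoa* mutants, which lacked an intact *mondoa* (*mlxip*) gene both maternally and zygotically, carried a frameshift allele named ka405, and were sorted into embryos with unaffected and with affected epiboly, in which the blastoderm spreads to enclose the yolk. Both mutant groups shared this one allele, and the rare affected embryos were picked by their phenotype. The labels give 5 hours post fertilization for all groups, whereas the methods of the study place sampling late in epiboly of the controls, so the age was not resolved. Nothing in the labels says that libraries of a group came from separate crosses, so p-values measure the spread between these libraries.

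Library totals ran from 27567897 to 39299268 counts, and 16962 genes passed the expression filter and were tested, all 8 members included. Values below are CPM, counts scaled to a common library size after TMM normalisation, and they are not corrected for gene length. At these depths the upper limit that a count of 0 allows, 3 counts, was between 0.0762 and 0.108 CPM per library, which covers counting error only. *mlxip* itself had 51.9 to 113 CPM in wild-type and 12.8 to 21.01 CPM in the 6 mutant libraries. Wild-type replicate 3 held the lowest of the wild-type values.

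Only read pairs with a unique place in the genome had been counted, so pairs that match several *znfl1* copies are missing from every row. How many were lost cannot be read from the table, and a value of one copy is therefore the level of its distinguishable reads. Of the 8 members, 3 (*znfl1*, *znfl1b* and *znfl1g*) were found by symbol among the RefSeq genes of another assembly, GRCz12tu, where they lie on 3 different chromosomes, none of them that of *mlxip*. The other 5, *znfl1h* among them, were not placed, so their position relative to *mlxip* is not known here.

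Of the 8 members, *znfl1h* had the greatest difference between wild-type and mutant embryos. It had 71.3, 35.2 and 73.3 CPM in wild-type replicates 1 to 3. In unaffected mutants it had 5.93, 3.06 and 4.33 CPM, and in affected mutants 4.38, 3.67 and 3.35 CPM. The wild-type and mutant libraries did not overlap, and the lowest wild-type value was 5.95 times the highest mutant value. The wild-type mean was 60.0 ± 21.4 CPM, that of unaffected mutants 4.44 ± 1.44 and that of affected mutants 3.80 ± 0.524 (SD, n = 3 each), so the mean was 13.5 times and 15.8 times higher in wild-type. The fitted log2 fold changes were -3.76 in unaffected and -3.98 in affected embryos against wild-type. Between the mutant groups, whose libraries overlapped, it was -0.22.

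**Figure D1:**
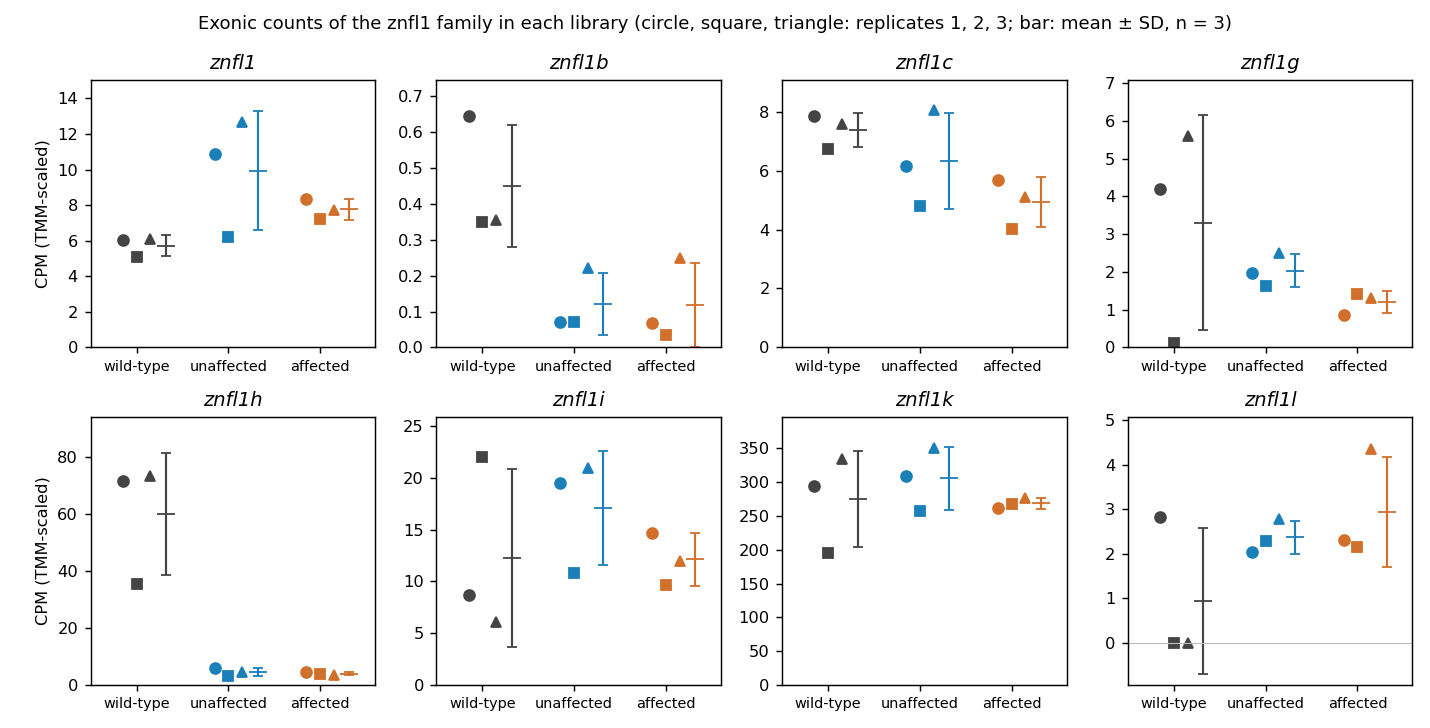
CPM of each *znfl1* member (vertical axes, linear, each panel with its own scale) in the 3 wild-type, 3 unaffected and 3 affected libraries, with symbols for replicates 1 to 3 and bars for the mean ± SD. All 6 mutant libraries sit at 3.06 to 5.93 CPM of *znfl1h* against 35.2 to 73.3 in wild-type, while wild-type replicate 2 stands apart for *znfl1g* (0.116 CPM) and *znfl1i* (22.0 CPM).

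The other 7 members did not share this difference in size. In unaffected against wild-type embryos none of the 7 passed (edgeR quasi-likelihood test, adjusted p under 0.05 over all genes), where 9.6% of all genes tested did. Of these 7 members, 2 had an unadjusted p under 0.05, for which the share over all genes is not given here. DESeq2 called 1, beside 2216 genes in all. With the replicate number as a block, 1 of 7 passed, beside 2758 genes in all. The groups did not overlap in 2 of 7, *znfl1* (higher) and *znfl1b* (lower), beside 27.9% of all genes. The 7 had 4 positive and 3 negative log2 fold changes with a median of 0.15, and the median over all genes was -0.0068. In affected against wild-type embryos 1 of 7 passed (*znfl1b*), beside 30.3% of all genes. DESeq2 called 1 in its place (*znfl1c*), beside 5436 genes in all. As *znfl1b* met the rule through wild-type libraries alone, its call is no evidence about the family. The same holds for *znfl1b* in the counts against wild-type of unadjusted p, of groups without overlap and of signs, and in the medians. *znfl1l* met the rule only with mutant libraries, where its mean was higher. Its signs against wild-type and its part in the medians are no evidence either. The groups did not overlap in 3 of 7, beside 45.1% of all genes. Of these, 1 was higher (*znfl1*) and 2 lower (*znfl1b* and *znfl1c*) in affected embryos, beside 22.6% and 22.5%. The median log2 fold change was -0.03, with -0.02 over all genes. In affected against unaffected embryos edgeR called 0 of 7, beside 2.99% of all genes (1.88% higher and 1.11% lower). DESeq2 also called 0 of 7, beside 1206 genes in all. By an unadjusted p under 0.05 the number was 0 as well, and that share over all genes is not given here. There 6 of 7 log2 fold changes were negative, with a median of -0.36, beside -0.0075 over all genes. The share of negative values over all genes is not given here, so the signs are not read as a trait of the family. In 1 of 7 members the groups did not overlap, beside 25.4% of all genes. Comparisons with wild-type share the same wild-type libraries. The members' shares called by the main edgeR fit, and those without overlap, were thus near or below those of all genes.

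**Figure D2:**
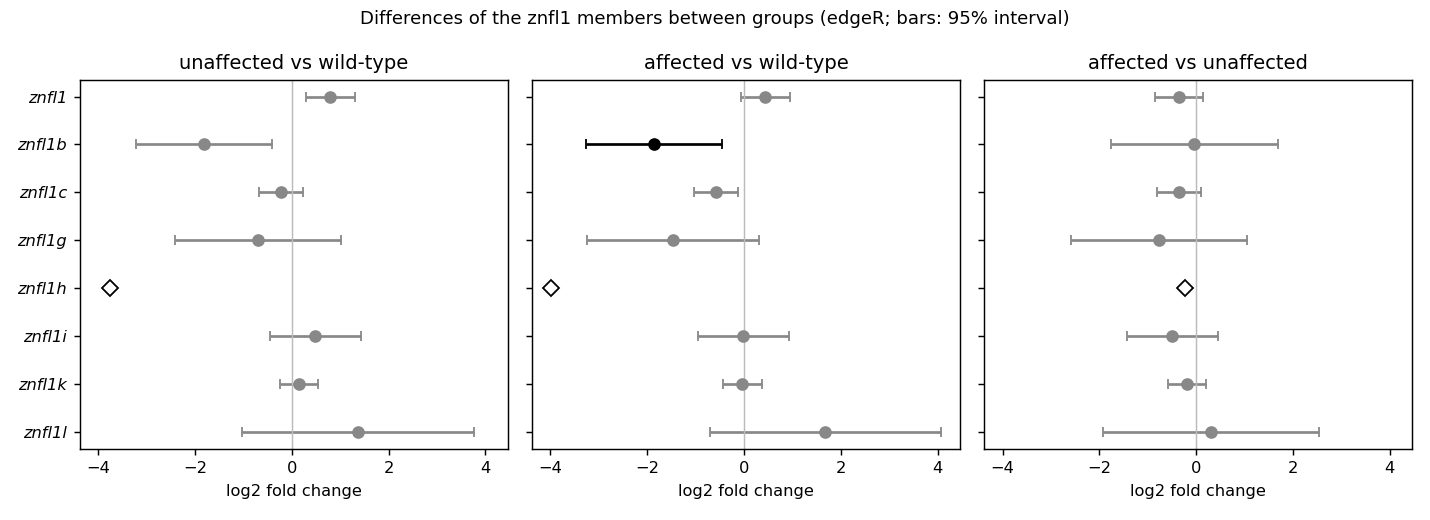
Log2 fold change (horizontal axis) of each member in the 3 comparisons, with 95% intervals from the edgeR fit, black where the adjusted p was under 0.05. *znfl1h* is drawn as an open diamond without interval because it led to the choice of the family. *znfl1b* is the member in black, at -1.86 in affected against wild-type embryos.

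*znfl1b* was close to the detection limit. It had 21, 12 and 14 counts in wild-type replicates 1 to 3, then 2, 2 and 7 in unaffected and 2, 1 and 8 in affected mutants. All mutant libraries lay below all wild-type libraries, and 4 of the 6 had only 1 or 2 counts. The mean was 0.450 ± 0.170 CPM for wild-type, 0.121 ± 0.0866 for unaffected and 0.118 ± 0.116 for affected embryos (SD, n = 3). *znfl1b* entered the tests only through the wild-type libraries, where it was high, so its low mutant values were favoured by the filter and its p-values are given as a description. The log2 fold change was -1.86 in affected embryos (SE 0.64, edgeR adjusted p = 0.0492) and -1.82 in unaffected embryos (SE 0.64, edgeR adjusted p = 0.105). The value under 0.05 was lost in 10 of 15 alternatives, with adjusted p from 0.0182 to 0.162: with DESeq2, with no filter, with only the libraries compared, and when any one of wild-type replicates 1, 2 or 3, unaffected replicates 1 or 2, or affected replicates 1 or 2 was left out.

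The founding member *znfl1* had the opposite order. Wild-type libraries held 6.03, 5.06 and 6.07 CPM, unaffected libraries 10.9, 6.23 and 12.7, and affected libraries 8.37, 7.20 and 7.71. All 6 mutant libraries thus lay above the wild-type libraries, unaffected replicate 2 by a small margin. The log2 fold change of 0.80 in unaffected embryos missed the threshold (SE 0.23, 95% interval 0.29 to 1.30, edgeR adjusted p = 0.0544). With the replicate number as a block, taken as pairing in this comparison though no label names it, *znfl1* passed (edgeR adjusted p = 0.0205). It also passed without a filter (0.0411), with DESeq2 (0.0118) and without unaffected replicate 2 (0.00559), over a range of adjusted p from 0.00559 to 0.159. In affected embryos the log2 fold change was 0.44 (SE 0.23, edgeR adjusted p = 0.176), and it passed in 1 of 16 alternatives, without unaffected replicate 2 (edgeR adjusted p = 0.0383).

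*znfl1c* was lower in each affected library than in any wild-type library, with 5.69, 4.003 and 5.11 against 7.85, 6.75 and 7.57 CPM. Unaffected libraries, at 6.14, 4.78 and 8.05 CPM, overlapped both groups. The log2 fold change in affected against wild-type embryos was -0.58 (SE 0.21, 95% interval -1.04 to -0.13) and missed the threshold (edgeR adjusted p = 0.0548). It passed in 6 of 16 alternatives, among them library size as the only scaling (0.0458), the libraries compared alone (0.0390), DESeq2 (0.0372), and the fits without unaffected replicate 2 (0.0384) or unaffected replicate 3 (0.0303). Its adjusted p ranged from 0.0149 to 0.191.

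*znfl1g*, *znfl1i* and *znfl1l* differed between wild-type libraries more than between groups. *znfl1g* had 136, 4 and 220 counts in wild-type replicates 1 to 3, or 4.18, 0.116 and 5.59 CPM. In the mutants it had 1.98, 1.62 and 2.49 CPM (unaffected) and 0.861, 1.41 and 1.32 CPM (affected), so that wild-type replicate 2 lay below all 6 mutant libraries and the other wild-type libraries above them. The affected libraries lay below the unaffected ones without overlap, with a log2 fold change of -0.76 (SE 0.82, 95% interval -2.58 to 1.06, edgeR adjusted p = 0.683).

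*znfl1i* ran the other way in the same libraries. Its wild-type values were 8.68, 22.0 and 6.02 CPM, with replicate 2 the highest of all 9 libraries. Unaffected libraries had 19.5, 10.8 and 20.9 CPM and affected libraries 14.7, 9.62 and 12.0 CPM, all 6 above wild-type replicates 1 and 3.

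*znfl1l* had 92 counts in wild-type replicate 1 and 0 in wild-type replicates 2 and 3. All 6 mutant libraries held between 57 and 139 counts, at 2.05, 2.29 and 2.78 CPM in unaffected and 2.31, 2.15 and 4.36 CPM in affected libraries, near the 2.83 CPM of wild-type replicate 1. Taking 3 counts in each of wild-type replicates 2 and 3 as the floor, the unaffected mean was at least 29.0-fold and the affected mean at least 36.0-fold higher than in these libraries. They were picked for their 0 counts, and against the mean of all 3 wild-type libraries the ratios were 2.5 and 3.1.

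None of these 3 members passed in any comparison with all libraries. Against wild-type, the log2 fold changes were -0.70 and -1.46 for *znfl1g*, 0.48 and -0.01 for *znfl1i*, and 1.37 and 1.68 for *znfl1l* in unaffected and affected embryos (edgeR adjusted p from 0.196 to 0.983). Without wild-type replicate 2, *znfl1g* passed against wild-type with a log2 fold change of -1.26 in unaffected embryos (edgeR adjusted p = 0.0222) and of -2.02 in affected embryos (edgeR adjusted p = 0.00159). In the same fit *znfl1i* passed with 1.22 in unaffected embryos (edgeR adjusted p = 0.0424). *znfl1l* reached 10 counts in 1 wild-type and 6 mutant libraries, so it met the rule only with the mutants, where its mean was higher. Without wild-type replicate 1, the wild-type libraries left were all at 0. That *znfl1l* then passed (edgeR adjusted p = 0.00109 in unaffected and 0.000494 in affected embryos) was favoured by the rule and is given as a description. These calls therefore rest on which wild-type libraries are included.

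The spread within wild-type was set beside that of all tested genes. The SD of log2 CPM over the 3 wild-type libraries was 2.76 for *znfl1g*, 3.19 for *znfl1l* and 0.96 for *znfl1i*, and 99.9%, 99.9% and 97.2% of tested genes had a lower one. The median over all genes was 0.22. In unaffected embryos the same members had SDs of 0.30, 0.22 and 0.52, and 68.7%, 53.9% and 88.0% of genes had a lower SD. In affected embryos the SDs were 0.36, 0.55 and 0.30, and 81.2%, 92.2% and 74.9% of genes had a lower one. *znfl1l* was the only one of the 32055 rows with 0 counts in wild-type replicates 2 and 3 and at least 50 in each of the other libraries. With *znfl1g*, 3 rows had at most 4 counts in wild-type replicate 2 and at least 25 in each other library, the others being a U2 spliceosomal RNA (ENSDARG00000082321) and *dkk3* (ENSDARG00000103591), a gene of the Dickkopf family. These limits were set after the values had been seen.

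*znfl1k* supplied most of the family's counts, 73.8% to 90.5% in every library. Wild-type libraries held 294, 196 and 335 CPM, unaffected ones 309, 257 and 351, and affected ones 261, 268 and 277, and the groups overlapped. Its log2 fold change was 0.15 in unaffected (95% interval -0.24 to 0.55, edgeR adjusted p = 0.648) and -0.03 in affected embryos (95% interval -0.43 to 0.36, edgeR adjusted p = 0.907), which leaves room for a change of up to these bounds. The sign turned without wild-type replicate 2 in unaffected embryos (-0.04), and in affected embryos without wild-type replicate 1 (0.02) or 3 (0.13). The affected libraries lay close together, with an SD of 7.63 CPM against 71.4 CPM in wild-type.

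Counts were then summed over the members. The sum was 396, 265 and 434 CPM for the wild-type libraries, 355, 286 and 402 for the unaffected and 298, 296 and 311 for the affected ones, and wild-type overlapped with both mutant groups. The log2 ratio of group means was -0.07 in unaffected and -0.28 in affected embryos against wild-type. Without *znfl1h*, which led to the choice of the family, the ratios were 0.17 and -0.03, from a sum added after seeing the data. Without *znfl1k* the sum separated the groups, with 102, 69.5 and 99.0 CPM in wild-type against 28.1 to 51.5 CPM over the mutant libraries, and log2 ratios of -1.09 and -1.45. Without *znfl1k* and *znfl1h* they overlapped again, at 30.2, 34.3 and 25.6 CPM for the wild-type, 40.6, 25.8 and 47.2 for the unaffected and 32.01, 24.4 and 30.7 for the affected libraries, with log2 ratios of 0.33 and -0.05. These sums, which carry no test, separated the groups only where they held *znfl1h* and left out *znfl1k*. The share of *znfl1h* in the family's counts was 13.3% to 18.02% for wild-type, 1.07% to 1.67% for unaffected and 1.08% to 1.47% for affected libraries.

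**Figure D3:**
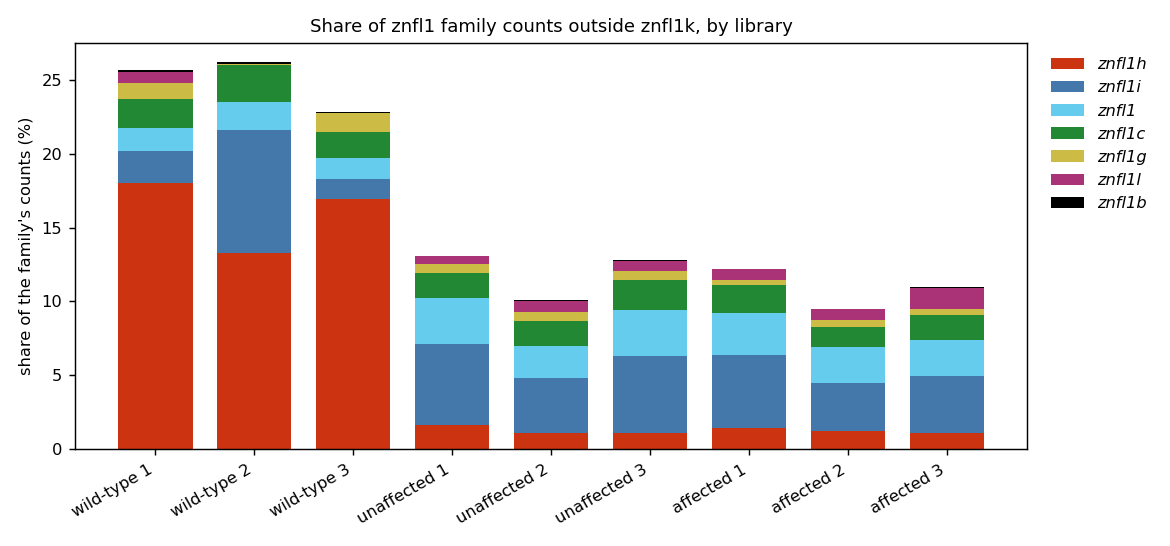
Share of the family's counts (vertical axis, percent) that each member other than *znfl1k* took in each of the 9 libraries, stacked. *znfl1h* takes 13.3% to 18.02% in wild-type and at most 1.67% in the mutants, and *znfl1i* takes 8.30% in wild-type replicate 2.

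Within each group, replicate 2 often held the lowest value. It was the lowest in 7 of 8 members in wild-type, where *znfl1l* was tied at 0 with replicate 3, in 7 of 8 in unaffected and in 5 of 8 in affected embryos. The same share over all genes is not given here, so these counts are not read as a trait of the family. Over all 9 libraries, which differ in genotype and phenotype, log2 CPM of *znfl1g* and *znfl1k* had a Pearson r of 0.89 (Spearman 0.80). *znfl1b* and *znfl1h* had 0.80 (0.67), *znfl1g* and *znfl1i* -0.63 (-0.57), and *znfl1h* and *znfl1l* -0.68 (-0.45). *znfl1h* was chosen for its low level in affected mutants. *znfl1b* met the rule only through wild-type libraries, and *znfl1l* only with mutant libraries. Correlations of pairs that hold any of these members were shaped by that choice and are no finding. The remaining 24 pairs lay between -0.57 and 0.76 (Pearson).

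Genes outside the family with a pattern like that of *znfl1h* were picked by the Pearson correlation of log2 CPM over the 9 libraries, among 7785 named genes of sufficient level. The 5 closest were *septin7b* (r = 0.98), the *txnip* identifier ENSDARG00000036107 (0.98), *smarce1* (0.98), *slc66a1* (0.98) and *msl1* (0.97). *txnip*, which encodes a brake on glucose uptake and is a known Mondo target, had 144 ± 19.9 CPM in wild-type and 2.06 ± 0.326 and 2.12 ± 0.615 CPM in the mutant groups (SD, n = 3). *slc66a1*, a lysosomal amino acid exporter, had 32.4 ± 4.04, 10.3 ± 0.686 and 12.6 ± 0.462 CPM, while *septin7b*, a cytoskeletal GTPase, went only from 117 ± 0.982 to 97.8 ± 1.85 and 96.3 ± 1.18 CPM. These genes were chosen for this likeness, so the direction they share with *znfl1h* is no finding.

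Factors placed around Znfl1 in zebrafish were then read from the same fit. For *hoxb1b*, wild-type libraries held 71.8, 79.1 and 83.7 CPM, unaffected libraries 64.1, 43.5 and 84.8, and affected libraries 28.8, 28.3 and 42.3. Affected libraries lay below all others, and *hoxb1b* fell by 1.24 on the log2 scale against wild-type (SE 0.23, edgeR adjusted p = 0.00314). Its difference from unaffected embryos, -0.95, missed the threshold in the fit without the replicate block (edgeR adjusted p = 0.0555). With the block, which raised the genes called in this comparison from 507 to 1399, the value of *hoxb1b* is not given here. A difference between the mutant groups is therefore not excluded. *pou5f3*, a pluripotency factor that is also supplied maternally, was at 210.4, 224 and 153 CPM in the wild-type libraries, at 313, 358 and 139.9 in the unaffected and at 454, 424 and 319 in the affected ones. It rose in affected embryos by 1.03 (SE 0.30, edgeR adjusted p = 0.0261), a call lost without wild-type replicate 1 (0.0576) or 3 (0.0693) or affected replicate 1 (0.0856) or 2 (0.0750), over a range of 0.00128 to 0.0856. *sall4* averaged 1030.3 ± 88.2 CPM for wild-type, 959 ± 213 for unaffected and 984 ± 143 for affected embryos (SD, n = 3), with log2 fold changes of -0.10 and -0.07 that did not pass (edgeR adjusted p = 0.753 and 0.796).

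Retinoic acid is made by Aldh1a2 and broken down by Cyp26 enzymes. *aldh1a2* had 118 ± 7.46, 113 ± 8.97 and 109.6 ± 11.7 CPM, and *cyp26a1* 402 ± 40.5, 424 ± 18.7 and 362 ± 12.7 CPM in wild-type, unaffected and affected embryos (SD, n = 3), and neither passed in any comparison. *raraa*, which encodes a retinoic acid receptor, had 34.2, 33.1 and 26.5 CPM in wild-type and 15.3, 14.5 and 18.02 in affected libraries without overlap, and it fell by 0.97 (SE 0.17, edgeR adjusted p = 0.00279). Of the 21 tested genes of the retinoic acid list, 1 was higher and 5 lower in affected than in wild-type embryos, beside 15.4% and 15% of all genes, with a median log2 fold change of -0.23. The higher one was an *rdh10* identifier (ENSDARG00000012369, 0.87, edgeR adjusted p = 0.000427). Lower beside *raraa* were *cyp26c1* (-1.66, edgeR adjusted p = 0.0168) and *cyp26b1* (-1.92, edgeR adjusted p = 0.0372), the latter at only 0.430 CPM in wild-type. A *dhrs3* identifier (ENSDARG00000044982, -4.99, edgeR adjusted p = 0.00445) and *rxrga* (-0.79, edgeR adjusted p = 0.0258) were also lower. This *dhrs3* identifier had only 7.13 CPM in wild-type and 0.220 CPM in affected embryos. The other *dhrs3* identifier (ENSDARG00000044803), with 92.8 CPM in wild-type, had -0.32 and did not pass (edgeR adjusted p = 0.0523). The number lower was 2 without wild-type replicate 1, affected replicate 1 or affected replicate 2. In unaffected embryos 0 were higher and 1 was lower, beside 4.65% and 4.95%.

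Genes of the posterior neuroectoderm and hindbrain, the tissue of *znfl1* transcription, were lower in larger number. Of 24 tested identifiers, 17 were lower and 1 (*irx7*) higher in affected than in wild-type embryos, beside 15% and 15.4% of all genes, with a median log2 fold change of -1.31. *meis3*, a partner of Hox proteins in hindbrain patterning, fell from 52.6 ± 8.33 to 18.1 ± 3.46 CPM (log2 fold change -1.53, edgeR adjusted p = 0.00408). *hoxb3a*, a hindbrain Hox gene, fell from 42.0 ± 2.98 to 8.37 ± 3.83 CPM (log2 fold change -2.32, edgeR adjusted p = 0.00490). The number lower was 10 without affected replicate 1 and 11 without affected replicate 2. In unaffected against wild-type embryos 0 of the 24 passed in either direction, beside 4.65% higher and 4.95% lower of all genes, with a median of -0.43. In affected against unaffected embryos 0 were higher and 1 was lower, beside 1.88% and 1.11% of all genes, with a median of -0.98. These counts come from the fit without the replicate block, and those with it are not given here. In the anterior neuroectoderm list, 11 of 18 were lower in affected than in wild-type embryos (median -0.60), beside 15% of all genes. The number was 6 without wild-type replicate 2, 5 without affected replicate 1 and 5 without affected replicate 2. In affected against unaffected embryos 0 of these 18 were higher and 5 lower (median -0.61), beside 1.88% and 1.11% of all genes. The posterior list had fewer calls there but the lower median (-0.98), so the counts do not rank the lists. In unaffected against wild-type embryos 0 of the 18 passed in either direction (median 0.07), beside 4.65% higher and 4.95% lower of all genes. The paper describes the affected mutants as strongly delayed in epiboly and halted midway. In whole embryos, fewer cells of a tissue, less RNA per cell and an earlier stage cannot be told apart.

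**Figure D4:**
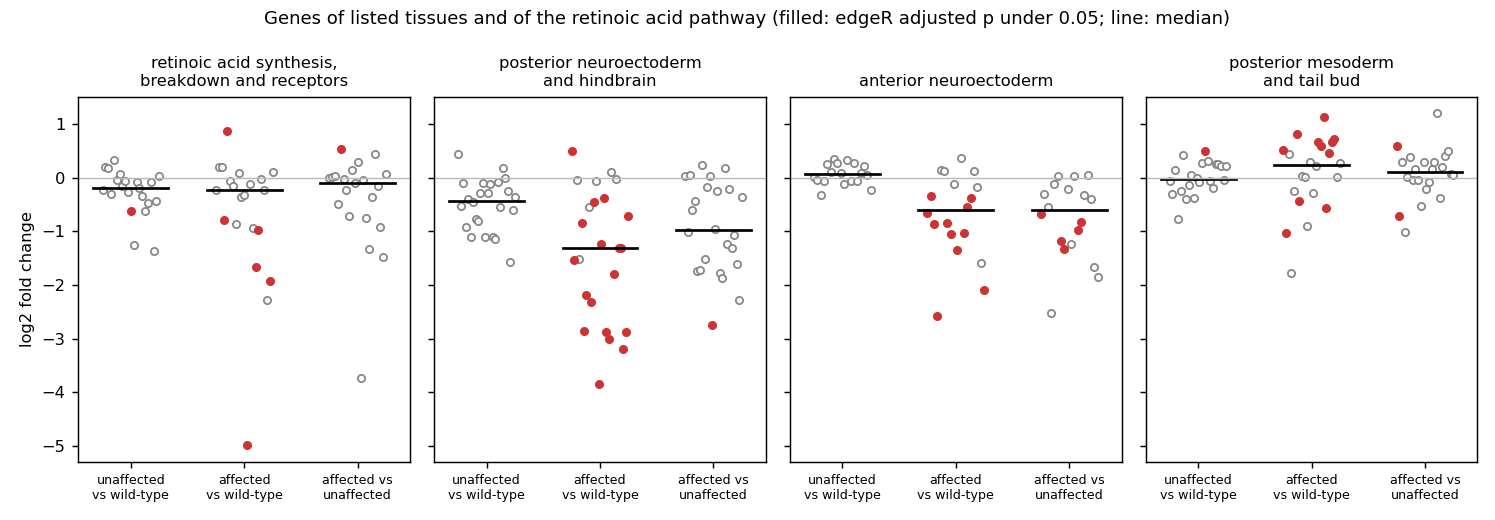
Log2 fold changes (vertical axis) of the tested genes of 4 lists in the 3 comparisons, 1 point per gene identifier, filled where the edgeR adjusted p was under 0.05, with a line at the median. In affected against wild-type embryos 17 of 24 genes of the posterior and 11 of 18 of the anterior neuroectoderm list are lower. In affected against unaffected embryos 1 of 24 and 5 of 18 are, in the fit without the replicate block.

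Markers of other tissues were read alongside. Enveloping layer markers summed to 11257 to 14726 CPM over the wild-type, 13012 to 15155 over the unaffected and 9891 to 11284 over the affected libraries, with 6 of 18 tested genes higher and 5 lower in affected than in wild-type embryos, beside 15.4% and 15% of all genes. Yolk syncytial layer markers summed to 3674 to 3864, 3088 to 3654 and 4002 to 4813 CPM in the same order, with 5 of 12 higher and 3 lower against the same background. Of 15 genes of segmentation onset, 2 were higher and 9 lower in affected embryos, again beside 15.4% and 15%, with summed levels of 752 to 790, 717 to 784 and 672 to 733 CPM. The part of tissue composition or of stage in the *znfl1* values was not tested.

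Other zinc finger genes, those with a symbol that starts with znf outside the family, were the most similar group by name. Of 221 tested, 31 were higher and 15 lower in unaffected embryos than in wild-type, beside 4.65% and 4.95% of all genes, with a median of 0.03. In affected embryos 45 were higher and 27 lower, beside 15.4% and 15%, with a median of 0.0021. Neighbours of the 3 placed members in RefSeq order were read as well. Of 18 neighbouring protein-coding genes, 9 were tested, of which 0 passed in unaffected and 3 in affected embryos against wild-type, beside 9.6% and 30.3% of all genes, so the neighbours were near the background. The 3 were *arhgap12b* (log2 fold change -0.39, edgeR adjusted p = 0.00936) and *chmp2a* (0.60, edgeR adjusted p = 0.00949) beside *znfl1g*, and *crfb4* (-1.18, edgeR adjusted p = 0.0366) beside *znfl1b*.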

How the data were processed

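The deposited values were raw exonic counts per gene; the authors mapped paired-end reads to GRCz11 with STAR (version 2.4.0i in the submitters' processing notes, another version in the study's methods), and counted uniquely mapped pairs per Ensembl gene. Use of strand in counting is not given in the sources used here. Replicates were not pooled, and all 9 columns were used. Symbols came from a table of Ensembl identifiers, which named 28986 of 32055 rows. Listed genes whose a or b paralogue letter found no row took the row of the unlettered symbol.

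Tests used edgeR 4.0.16 under R 4.3.3 (filterByExpr, TMM, glmQLFit, glmQLFTest, two-sided, all 9 libraries, no covariate), with Benjamini-Hochberg adjustment over 16962 genes and a threshold of 0.05. Log2 CPM used a prior count of 2. Standard errors were derived from the fold change and its F statistic. The fit was tested on simulated data. Replicates of a group differed well beyond sampling noise (chi-square per degree of freedom of 9.43 or more). Deviations of same-numbered libraries correlated at 0.123 to 0.268 (unaffected and wild-type) and 0.169 to 0.462 (affected and unaffected), which was taken as pairing, and at 0.0805 to 0.260 (affected and wild-type), which was not. The first and last of these ranges lie close together, and no label says that same-numbered libraries share a batch. The main results come from the fit without the block, also where pairing was taken. For *hoxb1b* and the lists, values with the block in affected against unaffected embryos are not given here. Alternatives were DESeq2 1.42.0, other scalings and filters, the libraries compared alone, the replicate block and each library left out. Members and lists were chosen with earlier results of these data known. All members and listed genes could be named, with the 5 genes most like *znfl1h* or the summed family (average log2 CPM of at least 3, symbol without a colon) and the 3 nearest protein-coding RefSeq neighbours on each side. Sequences of the genes were not used here.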

Additional observations from a re-analysis of the deposited data

How the results depend on the processing

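Leaving out each library in turn gave 0 to 2 of the 7 members in unaffected against wild-type, 0 to 2 in affected against wild-type and 0 in affected against unaffected embryos. Over all genes these fits gave 758 to 1797, 3402 to 5459 and 42 to 697 calls. The shares of genes tested are not given here, so the member counts are not read as a result about the family. They include *znfl1l* without wild-type replicate 1, and *znfl1b* in affected against wild-type embryos without unaffected replicate 3 or affected replicate 3. Calls of these members are no evidence about the family, because of how they met the rule. In unaffected against wild-type embryos 1 member passed with no filter, with the replicate block and with DESeq2. Genes called there were 1695, 2758 and 2216, and 965 with only the libraries compared. In affected against wild-type embryos 2 members passed with library size only and with the replicate block, beside 5166 and 6667 genes. They were *znfl1b* and *znfl1c*, the latter with an edgeR adjusted p of 0.0149 under the block. With no filter or with 10 counts in every library 0 members passed, beside 4991 and 4385 genes. The latter filter removed *znfl1b*, *znfl1g* and *znfl1l*. In affected against unaffected embryos 1399 genes passed with the replicate block and 1206 with DESeq2. The log2 ratio of the summed counts was -1.09 (unaffected) and -1.45 (affected) against wild-type without *znfl1k* and 0.33 (unaffected) without *znfl1k* and *znfl1h*, sums added after seeing the data. For the sum over all members, *znfl1h* included, the ratio ran from -0.25 to 0.07, from -0.46 to -0.13 and from -0.33 to -0.09. These are the ranges in the 3 comparisons with each library left out. Without *znfl1h* the ratio with all libraries was 0.17 in unaffected and -0.03 in affected embryos against wild-type. Of the retinoic acid list, 9 genes were lower in affected than in wild-type embryos with the replicate block and 3 with 10 counts in every library, against 5. Signs turned for members near 0. *znfl1i* in affected against wild-type embryos had 0.040 with the replicate block and -0.34 to 0.72 with each library left out. *znfl1k* had 0.0018 with the block, and -0.23 to 0.13 in affected and -0.039 to 0.32 in unaffected embryos with each library left out. In affected against unaffected embryos the corresponding ranges were -1.21 to 0.73 for *znfl1b*, -0.43 to 0.035 for *znfl1h* and -0.087 to 0.50 for *znfl1l*. *znfl1h*, which led to the choice of the family, had values between -4.25 and -3.54 against wild-type over the alternatives, given as a description only. The cause of these shifts was not tested. With 3 libraries per group, and with copies that share reads, small differences of one member were not detectable.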

Other observations

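The 5 named genes whose log2 CPM over the 9 libraries was closest to the summed family, 7785 genes being compared, were *exoc5* (Pearson r = 0.98), *zwilch* (0.98), *elapor1* (0.97), *idh2* (0.96) and *fan1* (0.95). *exoc5*, a subunit of the exocyst, averaged 27.1 ± 3.92 CPM for wild-type, 26.3 ± 2.44 for unaffected and 24.5 ± 0.942 for affected embryos (SD, n = 3). *zwilch*, part of the kinetochore checkpoint complex, had 28.6 ± 8.43, 24.8 ± 4.78 and 21.8 ± 0.893 CPM. They were chosen for this likeness.

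In the posterior mesoderm and tail bud list, 8 of 22 tested identifiers were higher and 3 lower in affected than in wild-type embryos, with a median log2 fold change of 0.25, beside 15.4% and 15% of all genes. In unaffected embryos 1 was higher and 0 lower, beside 4.65% and 4.95% (edgeR, adjusted p under 0.05).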
